A study of Homo sapiens with 16 samples.

Results

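DUSP4, DUSP5, DUSP6, SPRY1, SPRY2, SPRY4, SPRED1, SPRED2, EGR1 and PHLDA1 are feedback and early response genes of the ERK pathway, and their open chromatin was followed in 16 ATAC-seq libraries. They were taken by name, 10 of the 19974 protein-coding genes on chromosomes 1 to 22 and X of the RefSeq table. A peak belonged to a gene when its summit, the position of highest coverage, lay in the hg38 gene body or within 10000 bp on either side, and peaks with the same interval counted once. All 10 loci passed the filter for testing, a mean of at least 3 peaks over the 16 libraries, as did 15198 loci in all. The cells were IMR90, an established line of normal human lung fibroblasts, infected with a retrovirus that carries a B-RAF fusion, written △B-RAF:ER in the labels, and given the drug 4-OHT (4-hydroxy-tamoxifen). This fusion joins a truncated B-RAF kinase to an oestrogen receptor domain, so that the drug switches the kinase on. The labels form 4 groups of 4 libraries: Raf-inactivated and Raf-activated cells in normoxia, and the same in hypoxia at 0.5% oxygen. Infection and drug are described in the same words for every sample, so whether the Raf-inactivated cells carried the virus or met the drug is not given, nor is the time of treatment. The design asked how hypoxia affects chromatin accessibility in oncogene-induced senescence. The labels do not say whether the 4 replicates of a group were separate cultures, so p-values rest only on how much these libraries vary, and that variation may be technical.

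Raf kinases phosphorylate MEK, which phosphorylates ERK, and ERK in turn induces genes within minutes of a growth signal. Some of these gene products close a feedback loop. The DUSP proteins remove the phosphates from ERK, DUSP6 in the cytoplasm and DUSP4 and DUSP5 in the nucleus, while the Sprouty (SPRY) and SPRED proteins act upstream, between growth factor receptors and Raf. EGR1 is a zinc-finger transcription factor of the immediate early response, and PHLDA1 is an induced protein with a pleckstrin-homology-like domain. ATAC-seq cuts and tags DNA where Tn5 transposase can reach it, so that a peak marks open chromatin and does not measure transcription.

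The lists held 169287 to 206757 distinct peaks per library. Depth moved with the groups. The background coverage that could be recovered from the lists was 3.01 to 3.50 in Raf-inactive and 6.09 to 7.10 in Raf-active normoxia, and 4.61 to 5.02 in Raf-inactive and 6.53 to 8.34 in Raf-active hypoxia. Numbers of peaks were therefore also counted at matched depth, with each peak's coverage and background scaled to the lowest background and only peaks kept that still passed the lists' threshold. This dropped whole peaks and did not shorten or split those kept, so the length and joining of peaks were not matched for depth. Of 15 fibroblast marker genes, 13 had a peak within 500 bp of a gene end or start in all 16 libraries, against 2 of 8 epithelial, 0 of 6 endothelial and 3 of 5 blood markers. The fibroblast marker THY1 had one in 0 libraries, as did the epithelial marker CDH1 and the blood markers PTPRC and HBB, and COL3A1 had one in 7. The epithelial markers in all 16 were EPCAM and SFTPC. KRT18, CLDN4 and the endothelial CLDN5 had a peak in 15, NKX2-1 in 14 and TEK in 13. KRT8 had one in 5, and KRT19, PECAM1, CDH5, VWF and ERG in 1. The deposited peaks hold no measure of Raf activity, so the Raf labels were not checked.

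The start regions of 4 members on which the results turn are shown first, as the 250 bases before the outermost RefSeq start (GRCh38.p14), written along the transcribed strand. They were searched on both strands for AP-1 (TGANTCA), ETS (CCGGAA), EGR (GCGTGGGCG) and hypoxia factor core (ACGTG) motifs and for the CArG box bound by serum response factor, and matches are in capitals. EGR1 (chr5:138465229-138465478, plus strand) is shown for its CArG boxes, SPRY2 (chr13:80341127-80341376, minus strand) and PHLDA1 (chr12:76031777-76032026, minus strand) for an ETS match, and DUSP6 (chr12:89352502-89352751, minus strand) with no match.
EGR1: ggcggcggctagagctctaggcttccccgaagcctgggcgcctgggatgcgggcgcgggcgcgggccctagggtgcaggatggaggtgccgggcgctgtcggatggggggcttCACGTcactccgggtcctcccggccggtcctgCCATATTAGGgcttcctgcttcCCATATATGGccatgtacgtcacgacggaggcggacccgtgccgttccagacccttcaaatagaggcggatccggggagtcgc
SPRY2: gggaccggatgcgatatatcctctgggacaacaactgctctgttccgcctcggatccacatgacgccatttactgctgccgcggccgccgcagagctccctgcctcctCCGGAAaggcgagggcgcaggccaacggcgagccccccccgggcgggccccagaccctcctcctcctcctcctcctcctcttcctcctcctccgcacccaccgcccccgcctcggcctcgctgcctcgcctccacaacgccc
PHLDA1: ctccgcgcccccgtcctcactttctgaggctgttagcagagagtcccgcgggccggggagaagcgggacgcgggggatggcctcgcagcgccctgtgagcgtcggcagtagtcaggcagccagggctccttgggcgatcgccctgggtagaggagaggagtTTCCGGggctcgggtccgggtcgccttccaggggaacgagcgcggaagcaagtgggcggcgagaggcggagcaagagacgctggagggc
DUSP6: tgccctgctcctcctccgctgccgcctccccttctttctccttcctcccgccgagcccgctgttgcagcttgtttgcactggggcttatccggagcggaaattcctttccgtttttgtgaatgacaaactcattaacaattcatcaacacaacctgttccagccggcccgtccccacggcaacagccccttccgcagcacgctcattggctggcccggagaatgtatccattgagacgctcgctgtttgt
The EGR1 window holds 2 CArG boxes, which lie 105 to 96 and 83 to 74 bases before the start, and 1 hypoxia factor core 137 to 133 bases before it. None of these matches overlaps another. A CArG box occurred in 1.18% of 22156 protein-coding promoter windows of this length, a hypoxia factor core in 20.2%, an ETS match in 17.9%, an AP-1 match in 5.36% and an EGR match in 0.957%. The single ETS matches lie 142 to 137 bases before the SPRY2 start and 89 to 84 bases before the PHLDA1 start. Among the 12 windows of the 8 members with an entry, the remaining match was an ETS motif at an inner SPRY1 start. The GC content was 68.4% for EGR1, 70.4% for SPRY2 and for PHLDA1 and 57.2% for DUSP6, beside a median of 62% over all windows. DUSP4 and DUSP5 are named only. A match describes letters in this window and is not a site shown to be bound.

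With Raf active, more peaks were called at DUSP4, SPRY2 and EGR1 and fewer at DUSP6, in normoxia and in hypoxia, when flanks of 10 kb were counted with the gene. With flanks of 50 kb the calls of DUSP6 and SPRY2 were lost. With flanks of 2 kb those of SPRY2 were lost and the scaled number at EGR1 was called lower. DUSP4 went from 2 or 3 peaks to 7 to 13. In normoxia the numbers at SPRED1, SPRED2 and PHLDA1 were also called higher and that at SPRY1 lower, each of them lost or turned under other settings given below. At DUSP6 the peaks were fewer but longer, and the length covered rose. DUSP4 and DUSP5 had no annotated start here. A shared region at the upper-coordinate end of the DUSP4 gene model was higher with Raf active in both oxygen levels. At the annotated starts of the other members, the peaks that all libraries share were mostly lower with Raf active. They were lower at 7 of 10 in normoxia and 9 in hypoxia, beside 56.5% and 44.4% of all start regions. Those at the far ends of DUSP6, EGR1 and PHLDA1 were mostly higher, at 3 of 4 in each, beside 48.2% and 54.2% of all far-end regions.

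**Figure D1:**
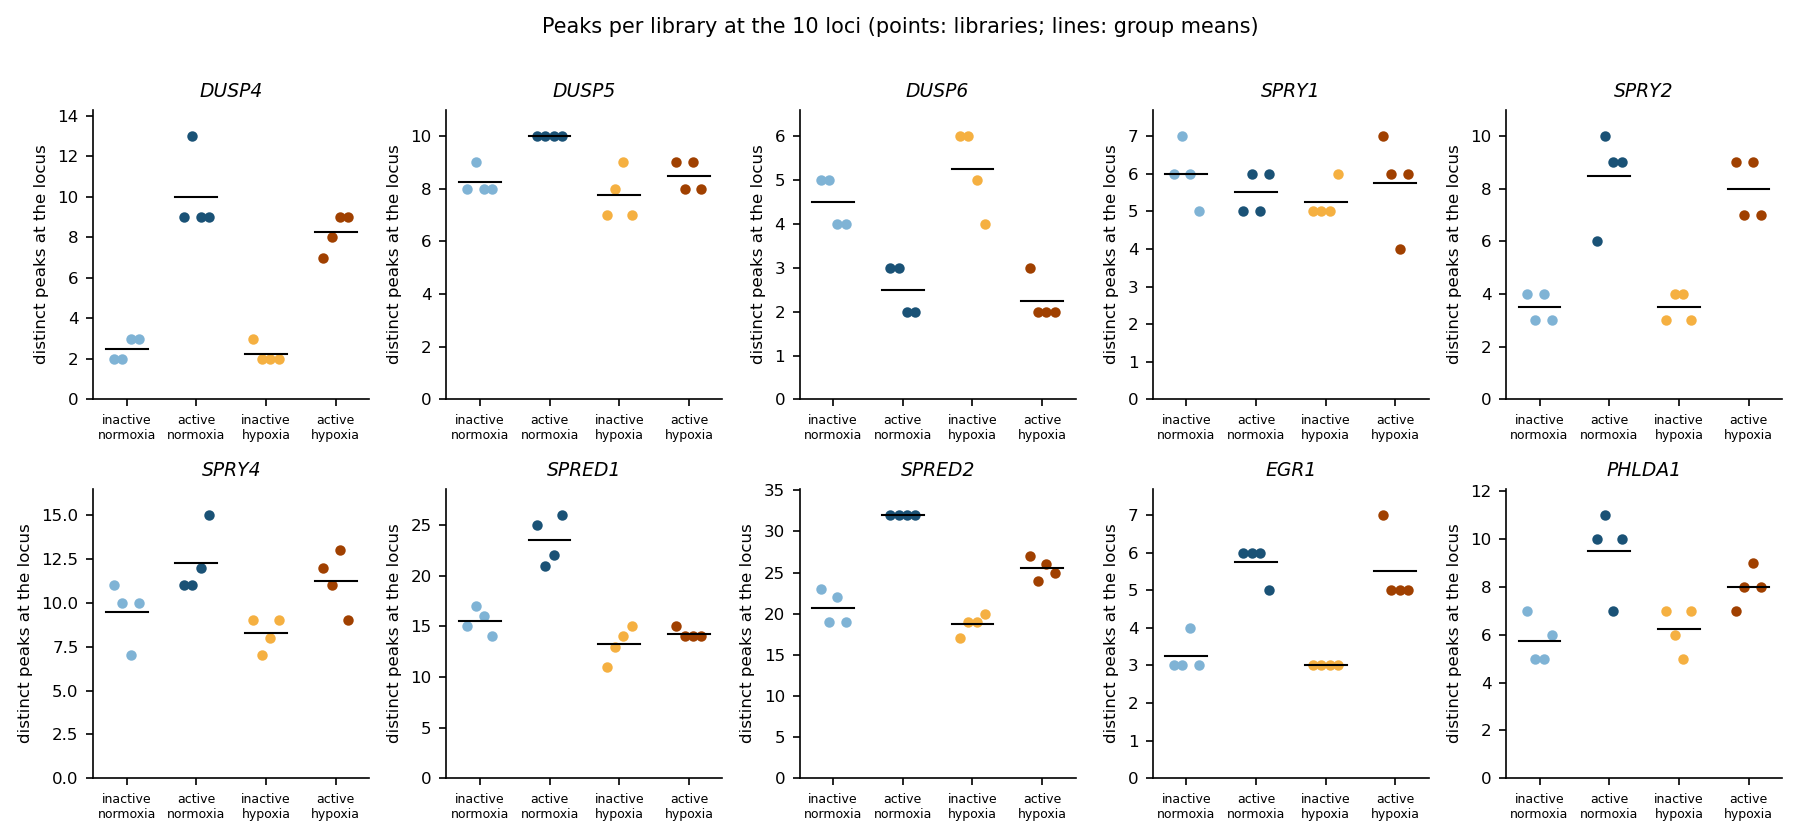
Distinct peaks (y axis, number as deposited) at each of the 10 loci in every library (points) by group, with group means (lines). DUSP4 has 2 or 3 peaks in each Raf-inactive library and 7 to 13 in each Raf-active one, and DUSP6 has 4 to 6 against 2 or 3.

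In normoxia 6 of the 10 members had more peaks with Raf active and 2 had fewer, by limma on log2 of the scaled number plus 1 at an adjusted p below 0.05; 37.5% and 25.6% of the 15198 loci were called in these directions. In hypoxia 3 had more and 1 had fewer, and 33.8% and 26.3% of all loci were called so. The median log2 change of the members was 0.34 in normoxia and 0.12 in hypoxia, beside 0.10 and 0.06 over all loci. At matched depth 5 had more and 2 fewer in normoxia, and 3 and 2 in hypoxia. Without scaling for the number of peaks per library the counts were 8 and 1 in normoxia and 6 and 1 in hypoxia, while the median of all loci moved to 0.33 and 0.29. When peaks had to reach a listed fold enrichment of 5, only 4 members passed the filter: DUSP5, SPRED1, SPRED2 and PHLDA1. Of these, 1 was higher and 1 lower in each contrast. The changes at DUSP4, DUSP6, SPRY2 and EGR1 could therefore not be tested in such peaks.

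The DUSP genes, which encode the ERK phosphatases, did not move together. DUSP4 (chr8:29333064-29350684) held 2, 2, 3 and 3 peaks in Raf-inactive normoxia and 9, 13, 9 and 9 in Raf-active normoxia. In hypoxia it held 3, 2, 2 and 2 with Raf inactive and 7, 8, 9 and 9 with Raf active. No Raf-inactive library reached a Raf-active one. The log2 change was 1.44 ± 0.14 (SE, n = 4 per group, limma adjusted p = 1.13e-07) in normoxia and 1.31 ± 0.14 (adjusted p = 4.22e-07) in hypoxia, on the log2 scale of the scaled number plus 1, which understates changes from low numbers. The length covered rose as well, from 1466 ± 152 bp (SD) to 4442 ± 542 bp in normoxia before scaling.

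DUSP6 (chr12:89347235-89352501), the cytoplasmic ERK phosphatase, moved the other way in number. It held 5, 5, 4 and 4 peaks in Raf-inactive normoxia and 3, 3, 2 and 2 in Raf-active normoxia, and in hypoxia 6, 6, 5 and 4 against 3, 2, 2 and 2. The groups did not overlap, and the log2 changes were -0.86 ± 0.13 (adjusted p = 3.25e-05) and -1.15 ± 0.13 (adjusted p = 1.62e-06). With flanks of 50 kb the changes were -0.01 (adjusted p = 0.901) and -0.22 (adjusted p = 0.05), neither of them called. With flanks of 10 kb the fewer peaks covered more bases: 2818 ± 137 bp rose to 4406 ± 91.3 bp in normoxia and 2598 ± 248 bp to 4304 ± 57.3 bp in hypoxia. The mean length of a DUSP6 peak was 633 ± 76.4 bp in Raf-inactive and 1829 ± 386 bp in Raf-active normoxia. Depth was also greater with Raf active, and its part in longer or joined peaks cannot be told apart here. The POC1B-DUSP6 readthrough gene overlaps the DUSP6 locus.

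DUSP5 (chr10:110497907-110511533) held 8, 9, 8 and 8 peaks in Raf-inactive and 10 in each of the 4 Raf-active normoxia libraries, and in hypoxia 7, 8, 9 and 7 against 9, 8, 9 and 8. After scaling, its number differed by 0.02 ± 0.08 (adjusted p = 0.864) in normoxia and by -0.12 ± 0.08 (adjusted p = 0.238) in hypoxia on the log2 scale. The length it covered was higher with Raf active in normoxia, by 0.21 ± 0.05 (adjusted p = 0.000551), and lower in hypoxia, by -0.16 ± 0.05 (adjusted p = 0.00435). The hypoxia value turned to 0.17 and was called without scaling. With flanks of 2 kb the number was called lower with Raf active, by -0.39 (adjusted p = 0.00104) and -0.22 (adjusted p = 0.0397), and the rise in length was lost (0.08).

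**Figure D2:**
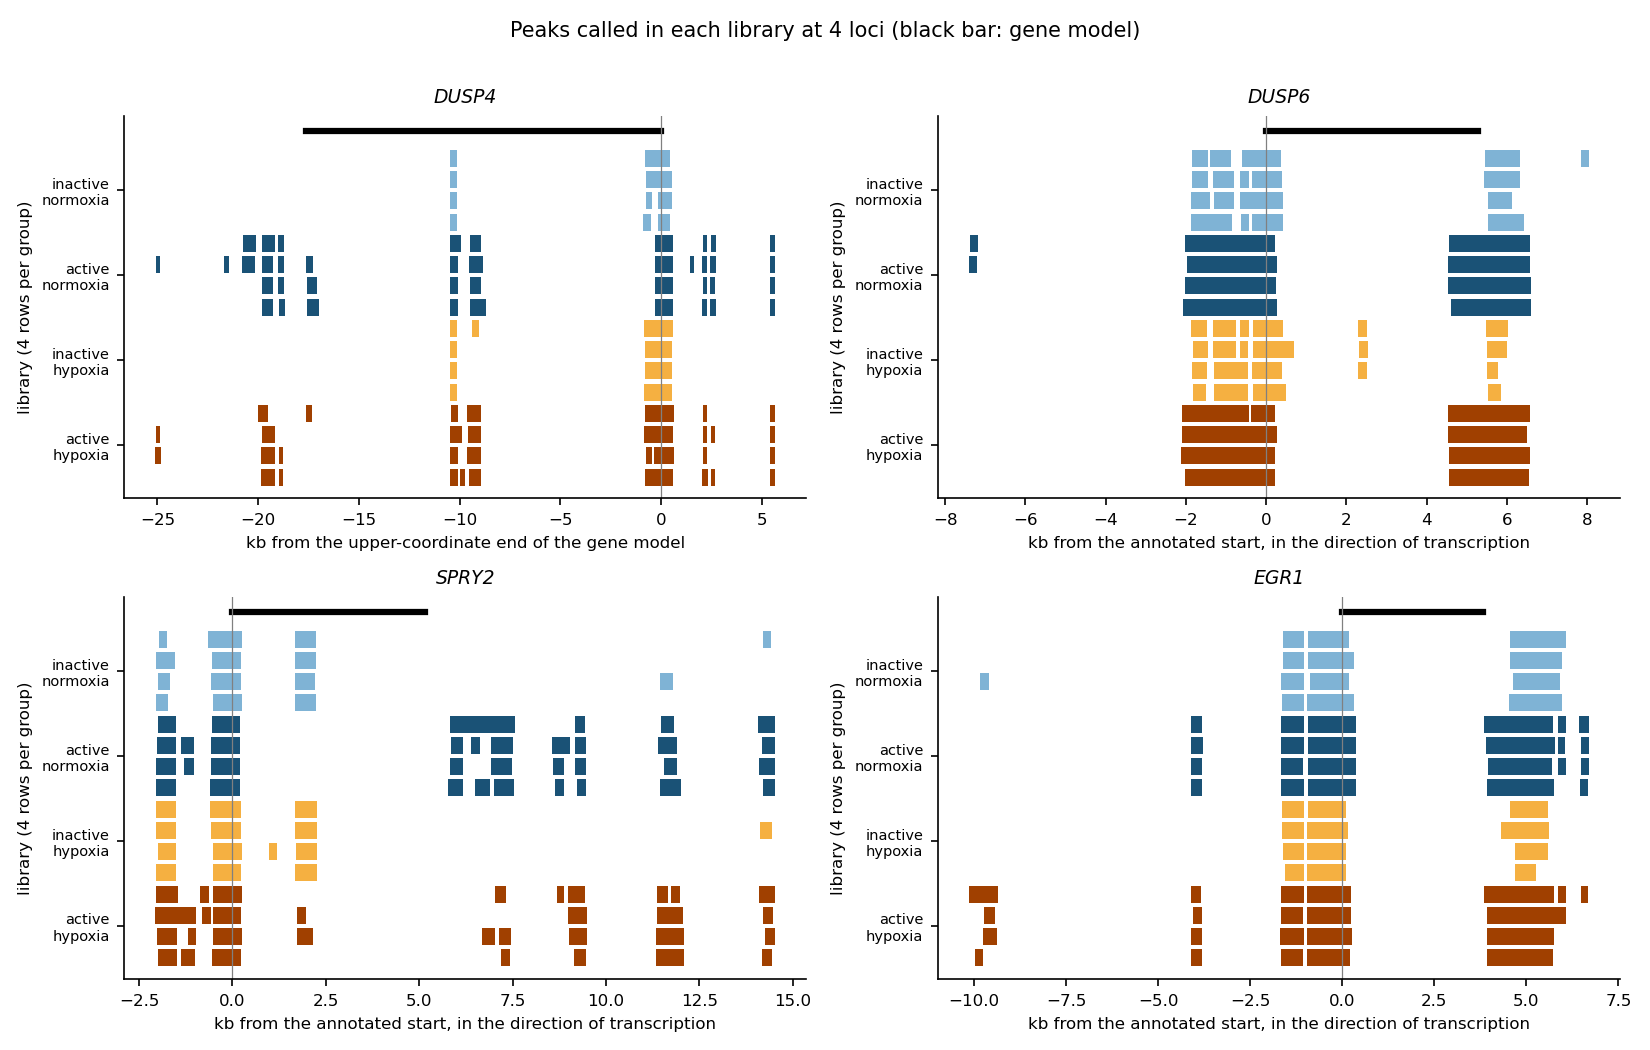
Intervals called as peaks in each of the 16 libraries (rows, 4 per group) at DUSP4, DUSP6, SPRY2 and EGR1, by distance in kb (x axis) from the annotated start or, for DUSP4, from the upper-coordinate end of the gene model. Raf-active rows show added short peaks at DUSP4, SPRY2 and EGR1 and joined blocks at DUSP6.

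Among the Sprouty genes, whose products restrain signalling from receptors to Raf, SPRY2 moved most. SPRY2 (chr13:80335976-80341126) held 4, 3, 4 and 3 peaks in Raf-inactive and 6, 10, 9 and 9 in Raf-active normoxia, and 3, 4, 4 and 3 against 9, 7, 9 and 7 in hypoxia. The groups did not overlap, and the log2 changes were 0.85 ± 0.14 (adjusted p = 6.18e-05) and 0.78 ± 0.14 (adjusted p = 0.000159). The 2 regions that SPRY2 gained in normoxia lay 6665 and 9018 bp past the start, beyond the far end of the gene. With flanks of 2 kb in place of 10 kb the change was 0.22 in normoxia, no longer called, and -0.01 in hypoxia, and with flanks of 50 kb it was 0.31 and 0.11, neither of them called.

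SPRY1 (chr4:123396795-123403760) held 6, 7, 6 and 5 peaks in Raf-inactive and 5, 6, 5 and 6 in Raf-active normoxia, which overlap as deposited. The scaled numbers did not overlap, and the log2 change was -0.32 ± 0.13 (adjusted p = 0.0344). This call was lost without scaling (-0.10, adjusted p = 0.47), at a −log10 q of at least 5 (-0.18, adjusted p = 0.314) and without the filter on low loci (adjusted p = 0.0504). It was also lost without Raf-inactive normoxia replicate 1 (-0.32), 2 (-0.25) or 3 (-0.32) and without Raf-active normoxia replicate 1 (-0.28) or 3 (-0.31). In hypoxia SPRY1 held 5, 5, 5 and 6 against 7, 6, 4 and 6 peaks, a change of -0.13 ± 0.13 (adjusted p = 0.384). SPRY4 (chr5:142310430-142325021) held 11, 10, 7 and 10 against 11, 11, 12 and 15 peaks in normoxia and 9, 7, 8 and 9 against 12, 11, 13 and 9 in hypoxia. Its number differed by 0.10 ± 0.13 (adjusted p = 0.508) and 0.16 ± 0.13 (adjusted p = 0.314), while the length covered rose by 0.44 ± 0.08 (adjusted p = 0.000177) and 0.49 ± 0.08 (adjusted p = 6.58e-05). The SPRY4 number was called higher in normoxia with flanks of 50 kb (0.34, adjusted p = 0.000691) and without scaling (0.34, adjusted p = 0.0349). In hypoxia it was called higher without scaling (0.40, adjusted p = 0.0171). No other alternative called either Raf change.

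The SPRED genes, whose products bring neurofibromin to the membrane, where it switches Ras off, are the longest of the 10 and held the most peaks. SPRED2 (chr2:65307175-65432599) held 23, 19, 22 and 19 peaks in Raf-inactive normoxia and 32 in each Raf-active normoxia library. Its log2 change was 0.36 ± 0.08 (adjusted p = 0.000814), which was 0.09 and not called in peaks of 5-fold enrichment or more. In hypoxia it held 17, 19, 19 and 20 against 27, 24, 26 and 25 peaks, a change of 0.17 ± 0.08 that was not called (adjusted p = 0.0707) although the scaled groups did not overlap. The SPRED2 number in hypoxia was called higher at a −log10 q of at least 5 (0.19, adjusted p = 0.017) and with flanks of 2 kb (0.23, adjusted p = 0.0187). It was also called without scaling (0.43, adjusted p = 9.06e-05) and without the filter on low loci (adjusted p = 0.0424), and in no other alternative. SPRED1 (chr15:38252836-38357249) held 15, 17, 16 and 14 against 25, 21, 22 and 26 peaks in normoxia, a log2 change of 0.32 ± 0.10 (adjusted p = 0.0082), although the scaled groups overlapped. The call was lost at matched depth (0.22), at a −log10 q of at least 5 (0.09) and with flanks of 2 kb (0.29) and 50 kb (0.06). In peaks that reached 5-fold enrichment it turned to -0.57 and was called lower (adjusted p = 0.00102). In hypoxia SPRED1 held 11, 13, 14 and 15 against 15, 14, 14 and 14 peaks, a change of -0.14 ± 0.10 (adjusted p = 0.209) that was not called. It was called lower at matched depth (-0.31), in peaks that reached 5-fold enrichment (-0.90), at a −log10 q of at least 5 (-0.34), with flanks of 2 kb (-0.47) and 50 kb (-0.36), and without Raf-inactive hypoxia replicate 1 (-0.23).

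Of the early response genes, EGR1 gained peaks in both oxygen levels and PHLDA1 was called in normoxia. EGR1 (chr5:138465479-138469303) held 3, 3, 4 and 3 peaks in Raf-inactive and 6, 6, 6 and 5 in Raf-active normoxia, and 3 in each Raf-inactive library against 7, 5, 5 and 5 in hypoxia. The groups did not overlap, and the log2 changes were 0.46 ± 0.10 (adjusted p = 0.000985) and 0.48 ± 0.10 (adjusted p = 0.000791). With flanks of 2 kb the scaled number was called lower, by -0.13 (adjusted p = 0.0358) and -0.15 (adjusted p = 0.0192). Before scaling, the intervals listed within these flanks lay at the same places in both Raf states. No fit without scaling was run with these flanks. The 2 regions that EGR1 gained in normoxia lay 3.96 kb before the start and 6564 bp past it, each more than 2 kb from the gene. PHLDA1 (chr12:76025447-76031776) held 7, 5, 5 and 6 against 10, 11, 7 and 10 peaks in normoxia, where the scaled groups overlapped and the change was 0.40 ± 0.12 (adjusted p = 0.00852). This call was lost with flanks of 2 kb (0.30, adjusted p = 0.0566) and of 50 kb (0.04, adjusted p = 0.799). In hypoxia it held 7, 6, 5 and 7 against 7, 8, 9 and 8, a change of 0.08 ± 0.12 (adjusted p = 0.569) that was 0.42 and called in peaks of 5-fold enrichment or more. The PHLDA1 window also holds part of NAP1L1.

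The length covered by peaks was called higher with Raf active at 8 members and lower at 1 in normoxia, and at 6 and 2 in hypoxia. Over all loci, 46.1% were called higher and 30.2% lower in normoxia, and 42.1% higher and 30.2% lower in hypoxia. The members' median log2 change in length was 0.39 and 0.28, beside 0.12 and 0.08 over all loci. DUSP4 led in normoxia with 1.28 ± 0.09 (adjusted p = 4.22e-09), followed by SPRY2 with 0.86 ± 0.07 (adjusted p = 3.7e-08). In peaks that reached 5-fold enrichment the 4 members that could be tested gave 0 higher and 2 lower in normoxia and 0 and 3 in hypoxia.

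**Figure D3:**
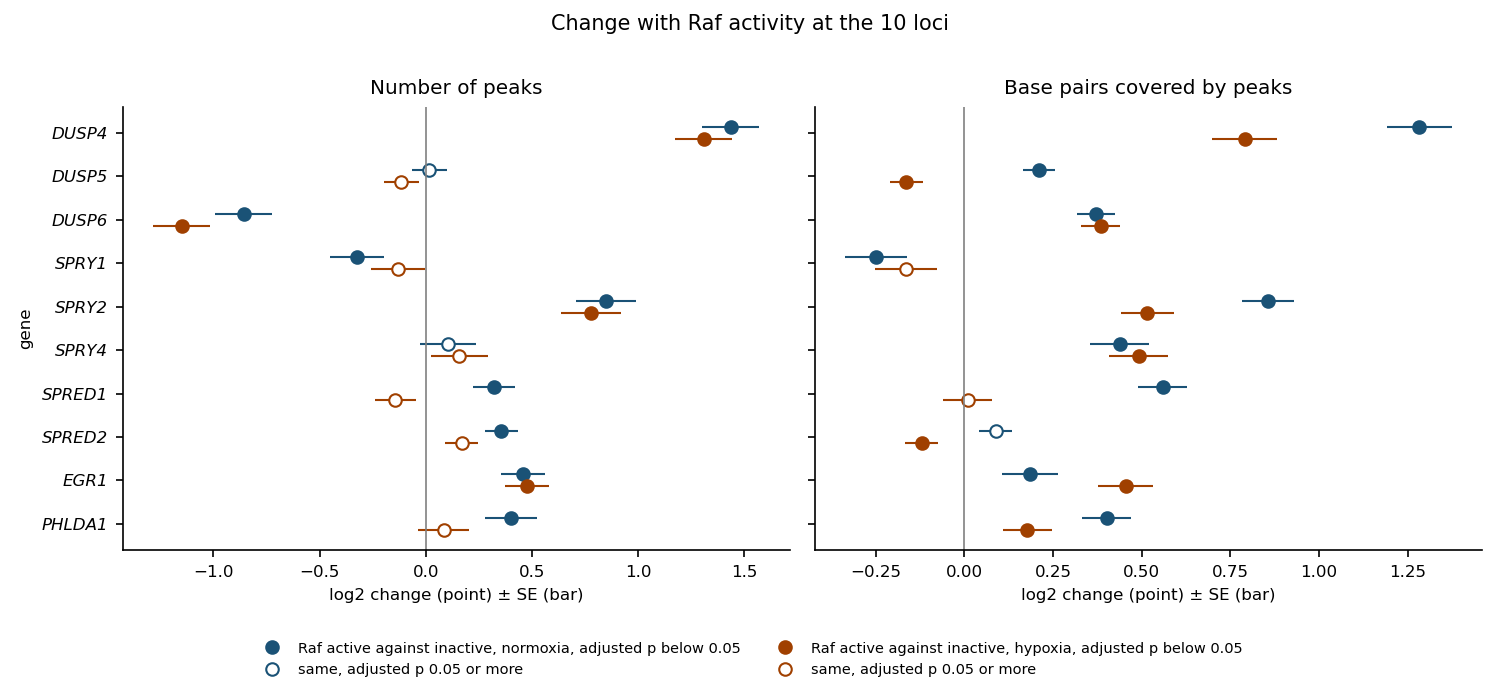
Log2 change with Raf activity (points, x axis) and its SE (bars) in the number of peaks (left) and in base pairs covered (right), in normoxia (blue) and hypoxia (brown). Filled points have an adjusted p below 0.05. DUSP6 is at -0.86 and -1.15 in number but at 0.37 and 0.38 in length.

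Joined over the 16 libraries, the peaks of the 10 loci formed 134 regions with peaks of at least 2 libraries, of which 40 had a peak in all 16. A region counted as gained, with no test, if it held a peak in all 4 libraries of the Raf-active (or hypoxic) group and in 0 of the compared group, and as lost in the opposite case. With Raf active, 30 member regions were gained and 7 lost in normoxia, or 22.4% and 5.22% of the 134. Over 299052 regions genome-wide 14.1% were gained and 10.6% lost. In hypoxia 17 were gained and 5 lost, or 12.7% and 3.73%, beside 13.8% and 8.82% genome-wide. At matched depth the counts were 29 and 7, and 16 and 5. Most gained regions were low, and with only peaks that reached 5-fold enrichment 8 were gained and 3 lost in normoxia, and 4 and 9 in hypoxia. Genome-wide this stricter list held 183357 regions, of which 24801 were gained and 24979 lost in normoxia, and 23105 and 23085 in hypoxia. A member total for this stricter list is not given here. The 30 gained regions reached a median highest fold enrichment of 4.05, against 9.35 for the 40 regions of all libraries. The fold enrichment is the authors' listed value over local background.

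The regions gained in both oxygen levels numbered 12, which is 40% of those gained in normoxia and 70.6% of those in hypoxia. Genome-wide 20864 regions were gained in both, or 49.4% and 50.4% of the respective lists. By the definition of gained, these 12 were each called in 8 of 8 Raf-active and 0 of 8 Raf-inactive libraries. They belonged to 8 of the 10 genes. DUSP4 had 3, of which 1 lay 5.53 kb outside the upper-coordinate end of its gene model (chr8:29356074-29356363). EGR1 had 1, centred 3.96 kb before its start (chr5:138461359-138461690), with listed fold enrichments of 2.27 to 3.42. The PHLDA1 region (chr12:76018129-76018496) lay 13.5 kb past the start, in the flank beyond the far end, and reached 5.11- to 7.52-fold. That of SPRY2 (chr13:80331637-80332580) lay 9.02 kb past the start, also beyond the far end, at 2.07- to 3.35-fold. In the SPRED2 gene body, the region 10.1 kb from the start (chr2:65422222-65422836) was the highest of the 12, at 5.79- to 9.33-fold.

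Only SPRED1 and SPRED2 had regions lost in both oxygen levels, 3 in all, or 42.9% of the 7 lost in normoxia and 60% of the 5 lost in hypoxia, beside 50.8% and 61.3% genome-wide. SPRED1 lost 2 neighbouring regions 96.4 and 97 kb into its gene body (chr15:38348880-38349639 and chr15:38349736-38350015). The first had a listed enrichment of 9.88- to 16.1-fold in each of the 8 Raf-inactive libraries and no call in any of the 8 Raf-active libraries. SPRED2 lost a region 116300 bp from its start (chr2:65316128-65316471) in the same way, at 3.69- to 5.66-fold. SPRY2 lost a region near an inner start (chr13:80338863-80339447) in normoxia, which was called in 4 of 4 Raf-inactive and 0 of 4 Raf-active libraries, while in hypoxia 2 of 4 Raf-active libraries kept it. DUSP6 and SPRY1 neither gained nor lost a region in any contrast.

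For the 40 member regions called in every library, the height of the peak could be compared. Height is the number of reads stacked at the summit, recovered from the listed fold enrichment and p-value and scaled so that all libraries had the same median over the 78756 such regions of the genome. This measure was added after the files were seen. With Raf active, 10 member regions were higher and 19 lower in normoxia, where 35.7% and 43.6% of all regions were, and 8 were higher and 25 lower in hypoxia, where 38.5% and 39.9% were. The members' median log2 change was -0.16 in normoxia and -0.54 in hypoxia, beside -0.10 and -0.01 over all regions. Scaled by background coverage instead, the normoxia split was 16 higher and 13 lower, while the median of all regions moved to 0.12. The hypoxia split stayed at 8 and 25. Both contrasts use separate libraries, and 17 regions were lower in both, which is 89.5% of those lower in normoxia and 68% of those in hypoxia. Over all 78756 regions the shares were 73.1% and 80%.

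**Figure D4:**
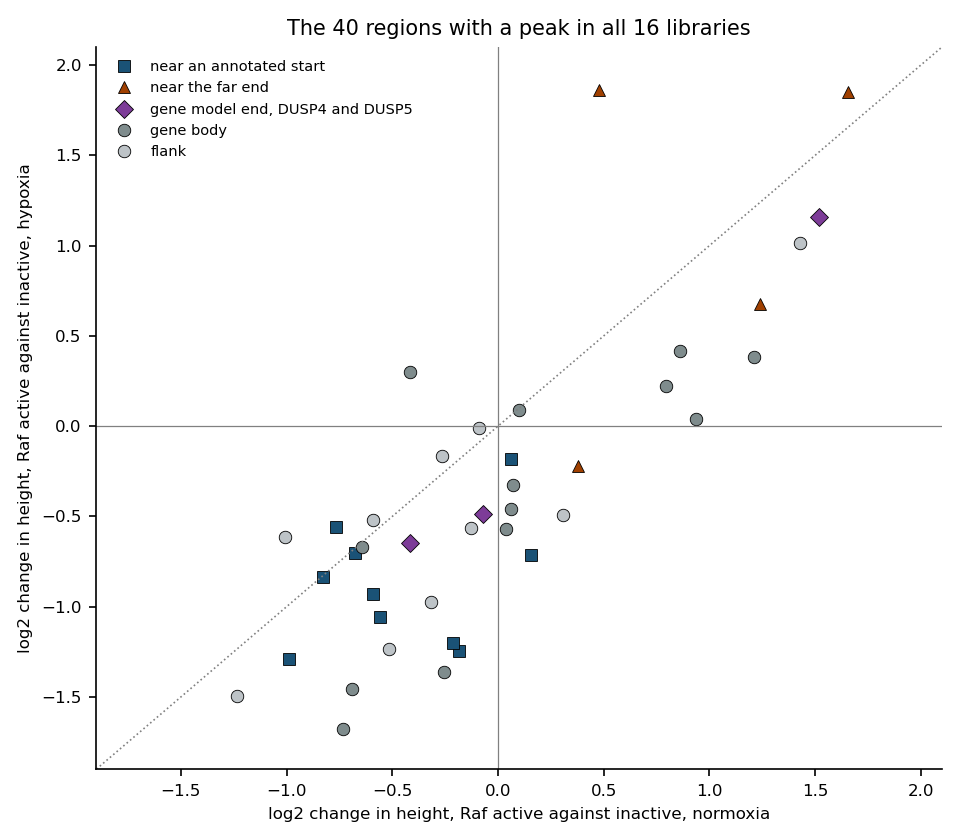
Log2 change in peak height with Raf activity in normoxia (x axis) and hypoxia (y axis) for the 40 member regions called in all 16 libraries, by their place. Regions near starts (squares) lie at or below 0.15 on both axes, and most far-end regions (triangles) lie above 0 on both.

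The 10 member regions within 500 bp of an annotated start belonged to 8 members, as DUSP4 and DUSP5 had no start entry. The DUSP4 region at a gene model end, which rose, is given below and is not among them. Of the 10, 0 were higher and 7 lower with Raf active in normoxia, and 0 and 9 in hypoxia. At an unadjusted p below 0.05, 0 were higher in either. Over the 10924 start regions of the genome 22% were higher and 56.5% lower in normoxia, and 31.7% higher and 44.4% lower in hypoxia. Scaled by background coverage, 2 were higher and 6 lower in normoxia, and hypoxia kept 0 and 9. EGR1 had the tallest start peak, with scaled heights of 1198, 1259, 1324 and 1320 in Raf-inactive and 797, 824, 715 and 672 in Raf-active normoxia. In hypoxia its heights were 1168, 1143, 1209 and 1314 against 891, 785, 810 and 797. The groups did not overlap, and the log2 changes were -0.76 ± 0.09 (adjusted p = 2.02e-07) and -0.56 ± 0.09 (adjusted p = 1.02e-05). This is the peak over the sequence with the 2 CArG boxes.

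The SPRY2 start peak, over the ETS match, fell from 681, 577, 626 and 609 to 282, 263, 356 and 366 in normoxia, and from 618, 600, 602 and 623 to 244, 250, 257 and 248 in hypoxia. The changes were -0.99 ± 0.10 (adjusted p = 5.36e-08) and -1.29 ± 0.10 (adjusted p = 1.68e-09), while the locus as a whole gained peaks. The DUSP6 start peak fell by 0.56 ± 0.10 (adjusted p = 3.54e-05) and 1.06 ± 0.10 (adjusted p = 1.39e-08) on the log2 scale. That of PHLDA1 fell by 0.59 ± 0.08 (adjusted p = 4.21e-06) and 0.93 ± 0.08 (adjusted p = 1.26e-08). The SPRY4 start peak changed by -0.21 ± 0.09 (adjusted p = 0.0447) in normoxia, and fell by 1.20 ± 0.09 (adjusted p = 1.81e-09) in hypoxia. The normoxia value was 0.01 when scaled by background coverage, and its call was lost without Raf-inactive normoxia replicate 2 or 3, Raf-active normoxia replicate 1, 2 or 3 or any 1 of the Raf-active hypoxia libraries, with values from -0.15 to -0.23. At SPRED1 the differences were 0.06 ± 0.09 (adjusted p = 0.523) and -0.18 ± 0.09 (adjusted p = 0.0631), the latter called without Raf-active normoxia replicate 4 (adjusted p = 0.0448).

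Regions within 500 bp of the end opposite the outermost start were shared by all libraries at DUSP6, EGR1 and PHLDA1, 4 in all, 2 of them at PHLDA1. Of these, 3 were higher with Raf active in normoxia and 3 in hypoxia, and of the 1226 far-end regions of the genome 48.2% and 54.2% were. At DUSP6 (chr12:89345901-89347978) the scaled heights were 84.9, 65.6, 69 and 68.3 in Raf-inactive normoxia and 223, 220, 221 and 238 in Raf-active normoxia, and 58.3, 66.5, 79.2 and 52.2 against 242, 242, 198 and 236 in hypoxia. The log2 changes were 1.66 ± 0.12 (adjusted p = 5.82e-10) and 1.85 ± 0.12 (adjusted p = 1.44e-10), the largest rises among the 40 regions in normoxia, with EGR1 just above it in hypoxia.

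At the EGR1 far end (chr5:138469325-138471562) the heights were 212, 206, 229 and 216 against 293, 338, 288 and 284 in normoxia, and 156, 212, 87.6 and 68.5 against 425, 415, 435 and 452 in hypoxia. The groups did not overlap. The change was 0.48 ± 0.23 in normoxia, which missed the threshold (adjusted p = 0.0685), and 1.86 ± 0.23 in hypoxia (adjusted p = 8.92e-07). One estimate of the spread over all 16 libraries enters both errors, and without Raf-inactive hypoxia replicate 2 or 4 the normoxia change was called (adjusted p = 0.0164 and 0.0213). It was also called in a fit of the 8 libraries compared (adjusted p = 0.000604) and when scaled by background coverage (0.70, adjusted p = 0.00758). A pseudocount of 10 gave a call too (0.49, adjusted p = 0.0319), while a replicate block did not. At PHLDA1 (chr12:76025347-76027953) the changes were 1.24 ± 0.12 (adjusted p = 2.86e-08) and 0.68 ± 0.12 (adjusted p = 4.99e-05). The other PHLDA1 far-end region (chr12:76024806-76025275) rose by 0.38 ± 0.12 (adjusted p = 0.0102) in normoxia and differed by -0.22 ± 0.12 (adjusted p = 0.115) in hypoxia. The hypoxia value was called lower without Raf-inactive hypoxia replicate 3 (-0.32) or Raf-active hypoxia replicate 2 (-0.33). At DUSP4 the shared region at the upper-coordinate end of the gene model (chr8:29349811-29351319) rose by 1.52 ± 0.11 (adjusted p = 4.17e-10) and 1.16 ± 0.11 (adjusted p = 1.6e-08). Its heights were 74.8 to 86.8 in Raf-inactive and 196 to 248 in Raf-active normoxia. DUSP4 had no annotated start or strand here, so whether this end is its start was not read, and it counts with neither group.

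**Figure D5:**
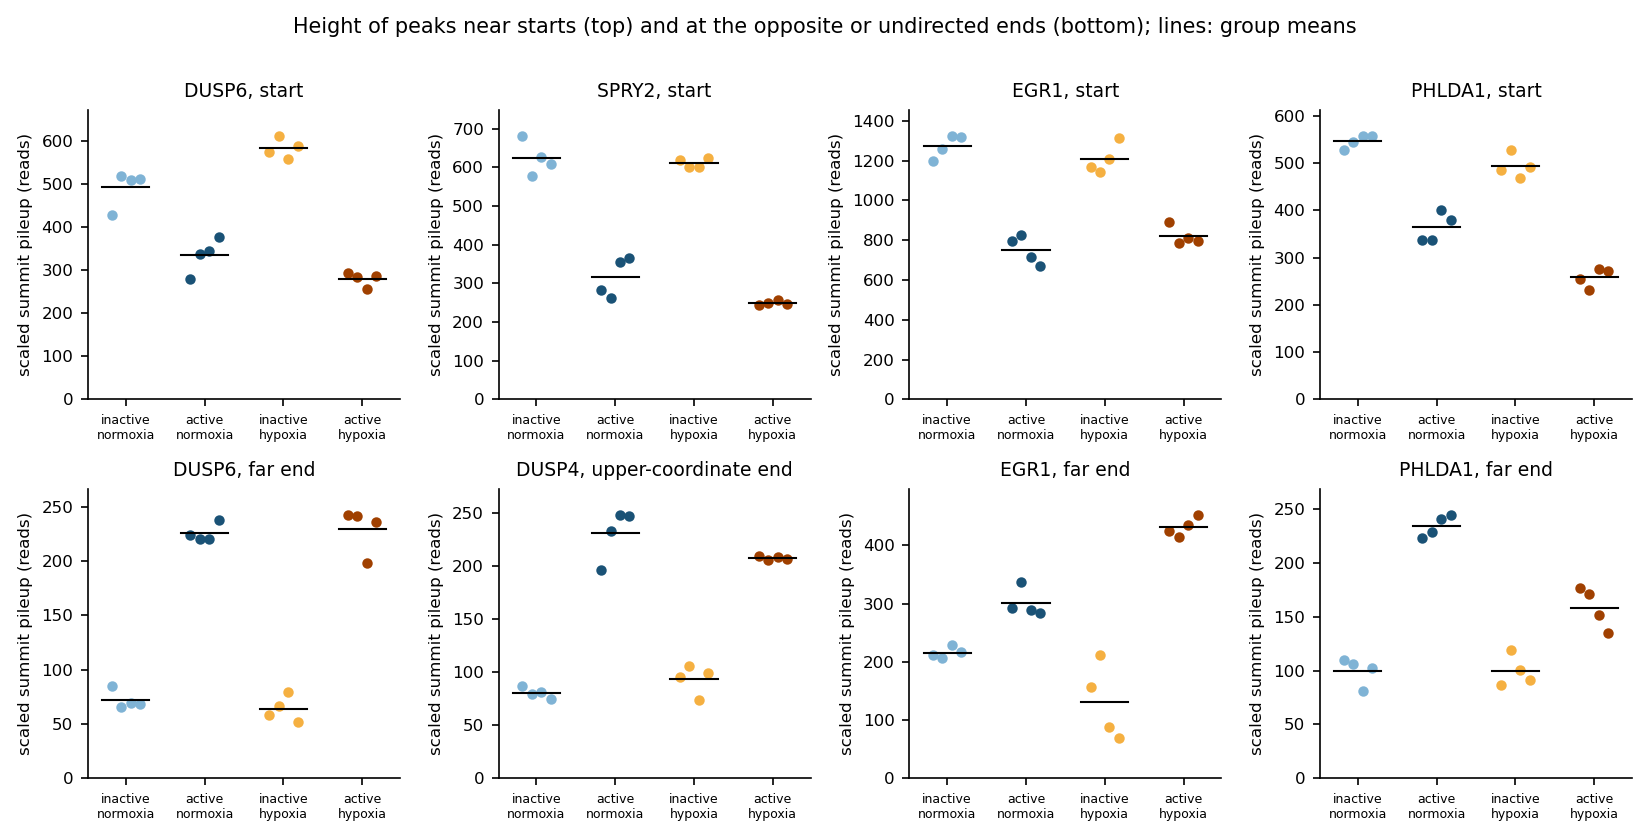
Scaled summit pileup (y axis, reads, linear from 0) in each library (points) with group means (lines) for 4 start regions (top) and 4 regions at the far end or, for DUSP4, the upper-coordinate end (bottom). The DUSP4 strand and start were not given, so its end is assigned neither to starts nor to far ends. All 4 start regions are lower with Raf active, and the DUSP6 far end goes from 52.2 to 84.9 up to 198 to 242.

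Among the shared regions away from starts and ends, members again differed. The DUSP5 gene body held 3 regions that were lower with Raf active in both oxygen levels, and that at chr10:110503699-110504656 changed by -0.74 ± 0.14 (adjusted p = 0.000111) in normoxia and -1.68 ± 0.14 (adjusted p = 4.64e-09) in hypoxia. A SPRY4 region in the flank beyond the far end (chr5:142303611-142305244) rose by 1.43 ± 0.14 (adjusted p = 4.28e-08) and 1.02 ± 0.14 (adjusted p = 3.38e-06). A SPRY2 region just before the start (chr13:80342093-80343189) fell by 1.23 ± 0.15 (adjusted p = 7.69e-07) and 1.49 ± 0.15 (adjusted p = 6.95e-08). Within the SPRED2 gene body, the region at chr2:65382804-65384057 rose by 0.94 ± 0.10 (adjusted p = 7.22e-08) in normoxia and differed by 0.04 ± 0.10 (adjusted p = 0.712) in hypoxia, an interaction of -0.90 ± 0.14 (adjusted p = 4.98e-05). These 4 loci were picked from the 40 regions after their values were seen.

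In Raf-inactive cells 0 of the 10 members had more or fewer peaks in hypoxia by limma, and 0 had an unadjusted p below 0.05. Over all loci 6.01% were called higher and 6.78% lower. The log2 changes ran from -0.17 at SPRED1 to 0.23 at DUSP6. In Raf-active cells 0 were higher in hypoxia, also at an unadjusted p below 0.05, and 2 were lower, where 13% and 14.1% of all loci were called. SPRED1 went from 25, 21, 22 and 26 peaks in Raf-active normoxia to 15, 14, 14 and 14 in Raf-active hypoxia, with no overlap, a change of -0.63 ± 0.10 (adjusted p = 0.000154). SPRED2 went from 32 in each library to 27, 24, 26 and 25, a change of -0.27 ± 0.08 (adjusted p = 0.0166). In peaks of 5-fold enrichment or more both calls were lost, with -0.24 at SPRED1 (adjusted p = 0.173) and -0.18 at SPRED2 (adjusted p = 0.132).

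The length covered by peaks also differed with oxygen. In Raf-inactive cells it was called higher in hypoxia at 2 members and lower at 1, where 10.7% and 11.8% of all loci were. DUSP4 rose by 0.29 ± 0.09 (adjusted p = 0.0349) and SPRY1 by 0.30 ± 0.09 (adjusted p = 0.0213), both with overlapping groups, and EGR1 fell by 0.34 ± 0.08 (adjusted p = 0.00653) without overlap. Both rises were lost in a fit of the 8 libraries compared and without Raf-inactive normoxia replicate 4 or Raf-inactive hypoxia replicate 1, 3 or 4, with values of 0.22 to 0.30. That of DUSP4 was also lost without Raf-inactive normoxia replicate 3 (0.24), at a −log10 q of at least 5 (0.19), with flanks of 50 kb (0.07) and without the filter on low loci, and that of SPRY1 without Raf-inactive normoxia replicate 1 (0.27). In Raf-active cells 1 member was higher and 4 were lower, where 19.2% and 21.3% of all loci were. SPRY1 rose by 0.39 ± 0.09 (adjusted p = 0.00237). SPRED1 fell by 0.57 ± 0.07 (adjusted p = 1.12e-05), DUSP5 by 0.31 ± 0.05 (adjusted p = 6.6e-05), SPRED2 by 0.28 ± 0.05 (adjusted p = 0.000234) and SPRY2 by 0.23 ± 0.07 (adjusted p = 0.02). The groups of these 5 genes did not overlap. The SPRED1 call was lost in peaks of 5-fold enrichment or more (-0.05), and that of SPRY2 with flanks of 50 kb (-0.06), without scaling (-0.15) and without Raf-active normoxia replicate 2 or Raf-active hypoxia replicate 4 (-0.20 and -0.17).

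In Raf-inactive cells hypoxia gained 1 and lost 2 member regions, where 1.5% and 1.59% of all regions were gained and lost. In Raf-active cells it gained 2 and lost 6, or 1.49% and 4.48% of the 134, beside 3.69% and 3.06%. DUSP5, SPRED1, SPRED2 and SPRY4 held the 6 lost regions.

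Of the shared peak heights in Raf-inactive cells, 12 of the 40 regions were higher and 6 lower in hypoxia, where 26.4% and 32.9% of all regions were, and in Raf-active cells 2 were higher and 22 lower, where 26.5% and 23.6% were. The median log2 change over the 40 in Raf-active cells was -0.30, beside 0.01 over all regions. Among the 10 start regions, 3 were higher and 2 lower in Raf-inactive cells, with 7.78% and 42.7% of all start regions, and 0 were higher and 8 lower in Raf-active cells, with 23.8% and 21.5%. The SPRY4 start peak went from 238, 210, 235 and 244 in Raf-active normoxia to 130, 136, 121 and 128 in Raf-active hypoxia, a change of -0.84 ± 0.09 (adjusted p = 1.39e-06). Its heights in Raf-inactive cells were 243 to 306 in normoxia and 279 to 339 in hypoxia. Scaled by background coverage the Raf-active split over the 40 regions was 2 and 23, and the Raf-inactive split was 17 and 2.

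The difference between the Raf changes in hypoxia and in normoxia was tested as an interaction. For the number of peaks 0 members were higher by limma, also at an unadjusted p below 0.05, and 1 was lower, with 9.13% of all loci in each direction. That member was SPRED1, with -0.47 ± 0.14 (adjusted p = 0.0263): its number rose with Raf in normoxia and differed by -0.14 in hypoxia. The call was lost without Raf-inactive normoxia replicate 4 (-0.41), Raf-active normoxia replicate 4 (-0.43) or Raf-inactive hypoxia replicate 3 (-0.43) or 4 (-0.41), and in peaks of 5-fold enrichment or more (-0.34). The same test on the length covered was added after its values were seen. By it 5 members had a lower and 0 a higher Raf change in hypoxia, beside 15.9% and 15.6% of all loci, and 1 was higher at an unadjusted p below 0.05. The differences were -0.55 ± 0.10 at SPRED1 (adjusted p = 0.000695), -0.49 ± 0.13 at DUSP4 (adjusted p = 0.00972), -0.37 ± 0.06 at DUSP5 (adjusted p = 0.00055), -0.34 ± 0.10 at SPRY2 (adjusted p = 0.022) and -0.21 ± 0.07 at SPRED2 (adjusted p = 0.0263). Of the 4 members that could be tested in peaks of 5-fold enrichment or more, 0 were called. With flanks of 50 kb the calls of DUSP4 (-0.16) and SPRY2 (-0.14) were lost, and without scaling those of SPRY2 (-0.27) and SPRED2 (-0.14). That of SPRED2 was also lost with flanks of 2 kb (-0.18) and without Raf-active normoxia replicate 3, Raf-inactive hypoxia replicate 4 or Raf-active hypoxia replicate 3 (-0.17 to -0.20).

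For heights, 2 of the 40 regions had a higher and 21 a lower Raf change in hypoxia than in normoxia, where 28.9% and 21.9% of all regions did. The members' median difference was -0.41, beside 0.08 over all regions. The SPRY1 start peak (chr4:123396557-123396964) had 135, 145, 163 and 166 against 117, 123, 152 and 144 in normoxia and 190, 198, 201 and 202 against 75.9, 103, 82.7 and 74.8 in hypoxia. Its Raf change was -0.19 in normoxia and -1.24 in hypoxia, a difference of -1.06 ± 0.16 (adjusted p = 4.39e-05).

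Other genes of the pathway were read from the same fit of peak numbers. Of 18 tested genes of the ERK cascade itself, 6 had more and 7 fewer peaks with Raf active in normoxia, and 6 and 8 in hypoxia. The shares of all loci called higher and lower, given above for the members, were 37.5% and 25.6% in normoxia and 33.8% and 26.3% in hypoxia, and they apply to the lists below as well. BRAF, the kinase whose truncated form was introduced, had fewer peaks in both, by -0.95 ± 0.09 (adjusted p = 1.52e-07) and -0.93 ± 0.09 (adjusted p = 2.48e-07). PTPN11, the phosphatase SHP2 that carries receptor signals to Ras, had more, by 0.92 ± 0.15 (adjusted p = 6.75e-05) and 1.20 ± 0.15 (adjusted p = 5.02e-06). SHOC2, a Raf-activating scaffold, fell by 1.12 ± 0.11 (adjusted p = 1.37e-07) and 0.90 ± 0.11 (adjusted p = 2.04e-06).

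Of 16 other feedback genes, 6 were higher and 3 lower in normoxia, and 7 and 4 in hypoxia. In normoxia the adaptor gene FRS2 fell by 1.35 ± 0.08 (adjusted p = 2.78e-10) and the phosphatase gene DUSP16 rose by 0.82 ± 0.10 (adjusted p = 3.41e-06). Of 26 other early response and target genes, 12 were higher and 4 lower in normoxia, and 8 and 6 in hypoxia. SRF, which encodes the factor that binds CArG boxes, rose by 1.06 ± 0.11 (adjusted p = 5.35e-07) in normoxia, and AREG, an EGF receptor ligand, rose by 0.75 ± 0.11 (adjusted p = 1.53e-05) in hypoxia. In Raf-active cells the cascade, feedback and target lists counted 1 higher and 6 lower, 1 and 3, and 2 and 5 in hypoxia, where 13% of all loci were higher and 14.1% lower. MAP2K1, which encodes the ERK kinase MEK1, fell by 0.62 ± 0.10 (adjusted p = 0.000176), SRF fell by 0.59 ± 0.11 (adjusted p = 0.00097) and FRS2 rose by 0.55 ± 0.08 (adjusted p = 6.7e-05). In Raf-inactive cells the lists counted 1 higher and 2 lower, 1 and 0, and 5 and 0, where 6.01% and 6.78% of all loci were called. The EGF receptor ligand genes AREG and HBEGF rose by 0.44 ± 0.11 (adjusted p = 0.0123) and 0.36 ± 0.08 (adjusted p = 0.00791), and MAP2K2, which encodes MEK2, fell by 0.51 ± 0.14 (adjusted p = 0.0224).

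The genes whose peak numbers ran most like those of a member over the 16 libraries, among tested loci on other chromosomes, were found by Pearson's r of log2 of the scaled number plus 1. The points share depth and group, so the values only describe. DUSP4 was most like SULF2 (r = 0.98) and OSBPL5 (0.98), DUSP6 like FNDC1 (0.98) and SMARCAD1 (0.96), and SPRY2 like TMC6 (0.96) and PLEKHG5 (0.95). EGR1 was most like ACE (0.95) and TICAM1 (0.94), SPRED2 like TRIM33 (0.95) and RBM15 (0.95), and SPRED1 like TIGD7 (0.92) and POLG2 (0.92). PHLDA1 reached 0.84 with SPATC1L and 0.82 with LARP4B, and SPRY1 0.82 with DAZAP2 and 0.81 with SHOX2. DUSP5 and SPRY4 were called in no contrast of scaled peak numbers with flanks of 10 kb and were given no partner.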

How the data were processed

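Peak lists of 16 ATAC-seq libraries, 4 per group by the labels, were used as deposited. Per the submitters' processing notes the tools named include MACS2, Bowtie2, cutadapt and Picard, with the build hg38; versions, settings and their order are not given in the sources used here. The authors deposited for each peak a score, a fold enrichment over local background (a ratio), and −log10 values of p and q. Files state no read totals. Summit coverage was recovered as the whole number whose fold and Poisson p matched the deposited −log10 p. The tolerance was 0.005, widened in proportion for large −log10 p, and 100% of peaks met it. Each summit implies a local background, and the background coverage of a library is the median of its lowest local values.

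Peaks with the same interval counted once. Numbers and base pairs per locus were scaled so that each library had the same total over all loci, and log2 of peaks plus 1 or of base pairs plus 100 was fitted over all 16 libraries with limma 3.58.1 (R 4.3.3), with Benjamini-Hochberg adjustment over 15198 loci. Peaks of all libraries were merged into regions. Heights in regions of all 16 libraries were fitted the same way after centring on library medians, a measure added after the files were seen. The fit and the recovery of coverage were tested on simulated data. Tables were handled with Python 3.11.15 (pandas 2.3.3, numpy 2.4.6, scipy 1.17.1).

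The members and gene lists were chosen with earlier results of these data known. All 10 members are named. From the other lists the rule named, per contrast, the 3 largest rises and 3 largest falls among called genes whose groups did not overlap, of which some are given, and the 2 loci most like each called member. Alternatives were other flanks (2 and 50 kb), stricter lists (fold or −log10 q of at least 5), matched depth, no scaling, other pseudocounts, no filter, a replicate block and leaving out each library. Region sequences were not analysed here, and 1 marker gene of the lists is not reported here.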

Additional observations from a re-analysis of the deposited data

Results flagged for a closer look

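In 15 of 108 groups of 4 libraries, 1 library stood apart from the other 3 by Dixon's criterion at the 95% level, where chance gives about 1 in 20. Peak numbers are small whole numbers before scaling, so 1 peak more can set a library apart, and the 4 libraries of DUSP5 and of SPRED2 in Raf-active normoxia differed only by their scaling.

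In scaled peaks, DUSP4 was high in Raf-active normoxia replicate 2 (11.5) and in Raf-inactive hypoxia replicate 1 (3.33). DUSP5 was high in Raf-inactive normoxia replicate 2 (9.82) and Raf-active normoxia replicate 3 (9.49), and SPRED2 in Raf-active normoxia replicate 3 (30.4). DUSP6 was high in Raf-active hypoxia replicate 1 (2.80) and SPRY1 in Raf-inactive hypoxia replicate 4 (6.72). EGR1 was high in Raf-inactive normoxia replicate 3 (4.33) and Raf-active hypoxia replicate 1 (6.52).

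In scaled heights, the EGR1 far end was high in Raf-active normoxia replicate 2 (338), the SPRY4 start in Raf-inactive hypoxia replicate 3 (339) and the PHLDA1 region at 76024806 in Raf-active hypoxia replicate 2 (187). Low values were those of the DUSP5 region at 110497293 in Raf-inactive hypoxia replicate 1 (345), the DUSP6 far end in Raf-active hypoxia replicate 3 (198) and the DUSP6 start in Raf-inactive normoxia replicate 1 (428).

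The change with Raf activity differed between hypoxia and normoxia, by limma's interaction term, for the number of SPRED1 peaks, by -0.47 on the log2 scale. In base pairs covered it differed by -0.55 at SPRED1, -0.49 at DUSP4, -0.37 at DUSP5, -0.34 at SPRY2 and -0.21 at SPRED2. Among heights at starts it differed by -0.87 at the inner SPRED2 start, -1.06 at SPRY1, -0.99 at SPRY4, -0.50 at DUSP6 and -0.34 at PHLDA1. At gene ends it differed by 1.38 at the EGR1 far end, -0.42 at the DUSP5 region at 110511639, and -0.60 and -0.56 at the PHLDA1 regions at 76024806 and 76025347.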

How the results depend on the processing

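With all 16 libraries kept or one contrast's fitted alone, 60 recomputed counts moved by more than 1.5 times and 264 did not, and 20 single values changed sign where one fit made a call. The cause was not tested. Among members not called, 98 of 1418 recomputed values changed sign.

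With fold enrichment of at least 5, the members with more peaks with Raf active were 1 in normoxia and 1 in hypoxia and those with fewer in normoxia 1. Those with fewer peaks in Raf-active hypoxia, and by the interaction, were 0. For base pairs, 0 were higher in normoxia and 0 in hypoxia, and 2 were lower in normoxia. Regions gained and lost were 8 and 3 with Raf in normoxia, 4 and 9 in hypoxia, 2 and 1 for hypoxia in Raf-inactive cells and 0 and 3 in Raf-active cells. Of 183357 regions genome-wide these counts were, in the same order, 24801 and 24979, 23105 and 23085, 4185 and 3545, and 7210 and 5850. In log2 change with Raf in normoxia, SPRED1 peaks turned to -0.57, and base pairs to -0.22 at SPRED1, -0.16 at SPRED2 and -0.36 at PHLDA1. In hypoxia, base pairs turned to 0.0061 at DUSP5, -0.35 at SPRED1 and -0.44 at PHLDA1.

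With 2 kb flanks, 2 members had more and 4 fewer peaks in normoxia, and 5 had fewer in hypoxia. In normoxia the change in scaled peaks turned to -0.39 at DUSP5 and -0.13 at EGR1, and in hypoxia to -0.012 at SPRY2 and -0.15 at EGR1. Base pairs in hypoxia turned to -0.22 at SPRY2 and 0.0043 at SPRED2. With 50 kb flanks, 1 member had fewer peaks in normoxia, 2 had fewer in hypoxia and 1 had more with hypoxia in Raf-inactive cells. Base pairs were lower at 0 in normoxia and higher at 3 in hypoxia, where SPRED1 turned to -0.20 and PHLDA1 to -0.16. With −log10 q of at least 5, fewer peaks were called at 1 member in normoxia and 2 in hypoxia, and fewer base pairs at 0 in normoxia.

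Without scaling, 1 member had fewer peaks in normoxia and 6 had more in hypoxia, and base pairs were lower at 0 in normoxia and 0 in hypoxia. Base pairs turned to 0.0039 at SPRY1 in normoxia, and to 0.17 at DUSP5 and 0.21 at SPRED2 in hypoxia. Without the filter on low loci, 1 member had fewer peaks in normoxia. At matched depth 2 had fewer in hypoxia, and 1 region was gained with hypoxia in Raf-active cells, as where a peak had to cover 50% of the region (1).

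Where 3 of 4 against 1 of 4 libraries sufficed, 13 regions were lost with Raf in normoxia, 27 gained and 11 lost in hypoxia, 7 gained and 7 lost with hypoxia in Raf-inactive cells, and 4 gained and 18 lost in Raf-active cells. For heights scaled by background coverage, 16 regions were higher and 13 lower with Raf in normoxia, and 17 higher and 2 lower with hypoxia in Raf-inactive cells. Of those near starts, 2 were higher and 6 lower with Raf in normoxia, and 4 higher and 0 lower with hypoxia in Raf-inactive cells. The SPRY4 start with Raf in normoxia turned to 0.0078.

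With 1 library left out, members with fewer peaks ranged from 1 to 2 with Raf in normoxia, from 1 to 2 in hypoxia and from 0 to 1 for the interaction. Members with fewer base pairs ranged from 0 to 1 in normoxia and 1 to 2 in hypoxia. Regions lost with Raf in normoxia ranged from 7 to 11 (11 without Raf-inactive normoxia replicate 2), those gained with hypoxia in Raf-inactive cells from 1 to 3 and those lost from 2 to 4, and far-end heights lower with Raf in hypoxia from 0 to 1. The base pair call of EGR1 in normoxia was lost in 7 of 8 such fits, with changes of 0.16 to 0.21.

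In base pairs, members higher with hypoxia in Raf-inactive cells were 0 with fold enrichment of at least 5 and in a fit of the 8 libraries compared, and 1 with −log10 q of at least 5 or no filter on low loci. Those lower were 0 with fold enrichment of at least 5, 2 with −log10 q of at least 5 and 3 with 2 kb flanks. In Raf-active cells 0 were higher and 2 lower with fold enrichment of at least 5. For the interaction 1 was higher with 2 kb flanks and 1 without scaling, 0 were lower with fold enrichment of at least 5 and 3 without scaling, and with 50 kb flanks SPRY4 turned to -0.22. With 1 library left out the range was 0 to 2 higher and 1 to 2 lower in Raf-inactive cells, and 0 to 1 higher for the interaction.

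Replicate numbers did not pair the libraries: correlations of same-numbered libraries ran from -0.037 to 0.015. With a replicate block, 6 members had more and 2 fewer peaks with Raf in normoxia and 3 and 1 in hypoxia, start heights lower in normoxia were 6, and EGR1 base pairs were called higher by the interaction (1 member). At matched depth 29 regions were gained with Raf in normoxia and 16 in hypoxia.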
